A study of Mus musculus with 14 samples.

Results

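Hypoxia-inducible factors (HIFs) and the genes that regulate them were examined in mouse brown adipose tissue (BAT), the fat depot that burns lipid and glucose for heat. The set holds 10 genes, taken by symbol from a count table of 55471 genes, and all 10 were found and passed the filter on low counts. It comprises the oxygen-regulated alpha subunits Hif1a, Epas1 (encoding HIF-2α) and Hif3a, their constant partner Arnt, the prolyl hydroxylases Egln1, Egln2 and Egln3, the ubiquitin ligase subunit Vhl, and the HIF targets Bnip3 and P4ha2.

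BAT RNA-seq libraries came from male mice aged 10 weeks, adipocyte-specific CLSTN3B knockouts (AdC3KO) and wild types (WT). All mice had been kept at thermoneutrality (30 °C) for 2 weeks. The groups were AdC3KO exposed to 4 °C for 6 h (n = 4), WT exposed to 4 °C for 6 h (n = 4), AdC3KO at 30 °C (n = 3) and WT at 30 °C (n = 3). CLSTN3B is an adipocyte product of the Clstn3 locus, and the sources used here do not name the Cre driver behind the knockout. Whether each library is 1 animal is not stated, and p-values measure spread among libraries, part of which may be technical.

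In cells with enough oxygen, the EGLN enzymes hydroxylate prolines of the HIF alpha subunits, and VHL binds the hydroxylated protein and marks it for degradation. When oxygen falls, alpha subunits escape this mark, pair with ARNT and bind a short DNA core in their target genes, which include Egln3 itself, Bnip3 and genes of glycolysis and collagen modification. HIF-2α is known for its high expression in blood vessel endothelium, and HIF-1α in BAT is linked to glucose use. Control of HIF is thus largely at the level of protein, which RNA counts do not measure.

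Libraries held between 19.9 M and 29.0 M gene counts. Levels are given in CPM, the count scaled to library size. Clstn3 averaged 65.8 ± 11.9 CPM in AdC3KO at 4 °C, 1109.6 ± 97.4 CPM in WT at 4 °C, 15.8 ± 1.31 CPM in AdC3KO at 30 °C and 207 ± 23.2 CPM in WT at 30 °C (SD). Its log2 fold change in AdC3KO against WT was -4.08 at 4 °C (adjusted p = 2.87e-11) and -3.71 at 30 °C (adjusted p = 1.13e-09). All 12 brown adipocyte markers examined were detected in every group. Skeletal muscle transcripts stood out in 5 libraries: library 3 of AdC3KO at 4 °C, library 2 of WT at 4 °C, libraries 1 and 2 of AdC3KO at 30 °C and library 3 of WT at 30 °C. Interferon response genes were high in library 4 of WT at 4 °C and library 1 of AdC3KO at 4 °C. Results that these libraries move are given with and without them.

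The promoters of 6 members are shown to set the short HIF core beside the cold response. They are the 5 matched members that rose at 4 °C in both genotypes, and Bnip3, which was not called although its window held 5 cores. Each runs from 250 bases before to 50 after the RefSeq start site, on the gene's strand, in GRCm38.p6. Capitals mark the hypoxia response core ACGTG or GCGTG on either strand (so CACGT and CACGC also count) and, in Arnt, the cAMP response element TGACGTCA.
Hif1a, chr12:73907617-73907916, plus strand: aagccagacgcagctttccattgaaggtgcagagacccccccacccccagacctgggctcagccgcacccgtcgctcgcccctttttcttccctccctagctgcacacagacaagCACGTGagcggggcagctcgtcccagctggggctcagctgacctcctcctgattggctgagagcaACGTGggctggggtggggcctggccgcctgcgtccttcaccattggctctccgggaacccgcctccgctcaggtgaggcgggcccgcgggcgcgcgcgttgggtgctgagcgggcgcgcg
Hif3a, chr7:17062378-17062677, minus strand: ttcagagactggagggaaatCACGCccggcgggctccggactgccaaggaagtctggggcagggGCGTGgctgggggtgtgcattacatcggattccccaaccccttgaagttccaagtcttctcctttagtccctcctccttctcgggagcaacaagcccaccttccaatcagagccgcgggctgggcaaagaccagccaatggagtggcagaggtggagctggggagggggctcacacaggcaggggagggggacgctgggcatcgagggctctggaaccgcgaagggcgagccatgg
Arnt, chr3:95434140-95434439, plus strand: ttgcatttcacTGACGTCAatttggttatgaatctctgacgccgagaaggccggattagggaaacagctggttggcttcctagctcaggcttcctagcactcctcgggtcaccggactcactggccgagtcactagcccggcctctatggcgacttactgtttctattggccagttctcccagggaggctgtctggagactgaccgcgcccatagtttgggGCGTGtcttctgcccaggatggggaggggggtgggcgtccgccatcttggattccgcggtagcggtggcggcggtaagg
Egln3, chr12:54203825-54204124, minus strand: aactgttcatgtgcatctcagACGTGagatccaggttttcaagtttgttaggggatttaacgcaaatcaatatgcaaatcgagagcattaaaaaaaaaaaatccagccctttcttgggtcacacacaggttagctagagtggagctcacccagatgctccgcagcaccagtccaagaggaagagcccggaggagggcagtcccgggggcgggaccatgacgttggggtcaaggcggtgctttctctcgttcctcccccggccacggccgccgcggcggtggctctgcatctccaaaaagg
P4ha2, chr11:54100674-54100973, plus strand: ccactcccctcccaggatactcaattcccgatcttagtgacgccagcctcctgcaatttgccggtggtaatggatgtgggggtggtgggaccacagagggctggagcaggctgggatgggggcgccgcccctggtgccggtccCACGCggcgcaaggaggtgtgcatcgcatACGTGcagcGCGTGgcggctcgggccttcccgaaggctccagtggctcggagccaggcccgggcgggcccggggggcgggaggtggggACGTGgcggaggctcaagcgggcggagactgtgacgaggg
Bnip3, chr7:138909457-138909756, minus strand: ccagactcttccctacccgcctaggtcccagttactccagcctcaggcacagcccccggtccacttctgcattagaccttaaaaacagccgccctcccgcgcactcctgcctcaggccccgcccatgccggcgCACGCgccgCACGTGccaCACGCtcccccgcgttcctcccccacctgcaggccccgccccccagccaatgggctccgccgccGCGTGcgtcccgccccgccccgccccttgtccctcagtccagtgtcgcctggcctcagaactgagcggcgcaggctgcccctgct

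Counted on each strand, these windows held 3 cores in Hif1a, 2 in Hif3a, 1 in Arnt, 1 in Egln3, 4 in P4ha2 and 5 in Bnip3. CACGTG reads as a core on both strands and so counts for each. Of 32544 RefSeq promoter windows of the same length, 44.0% held at least 1 core and 1.8% held TGACGTCA. A match is a run of letters and no evidence of binding. Among members not printed, Egln1 held 2 cores, Egln2 held 6 in its first window and 1 in its second, and Vhl held 0. Epas1 was the member not matched.

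Cold exposure moved most of these transcripts, in both genotypes. In AdC3KO, 6 of 10 members rose at 4 °C against 30 °C, 1 fell and 3 were not called at an adjusted p below 0.05 in edgeR's quasi-likelihood test. Of all 15949 genes tested, 63% were called in that comparison, 31% higher and 32.1% lower. In WT, 5 members rose, 2 fell and 3 were not called, beside 61.4% of all genes called, 30.6% higher and 30.8% lower. The share of members called was thus near the share of all genes. The median log2 fold change of the 10 members was 0.44 in AdC3KO and 0.38 in WT, and that of all genes was -0.06 in AdC3KO and -0.03 in WT. The members were chosen with earlier results of these data known, so this comparison is descriptive only. Libraries at 4 °C and 30 °C did not overlap for 8 members in AdC3KO, beside 64.1% of all genes, and for 6 members in WT, beside 60.3% of all genes.

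**Figure D1:**
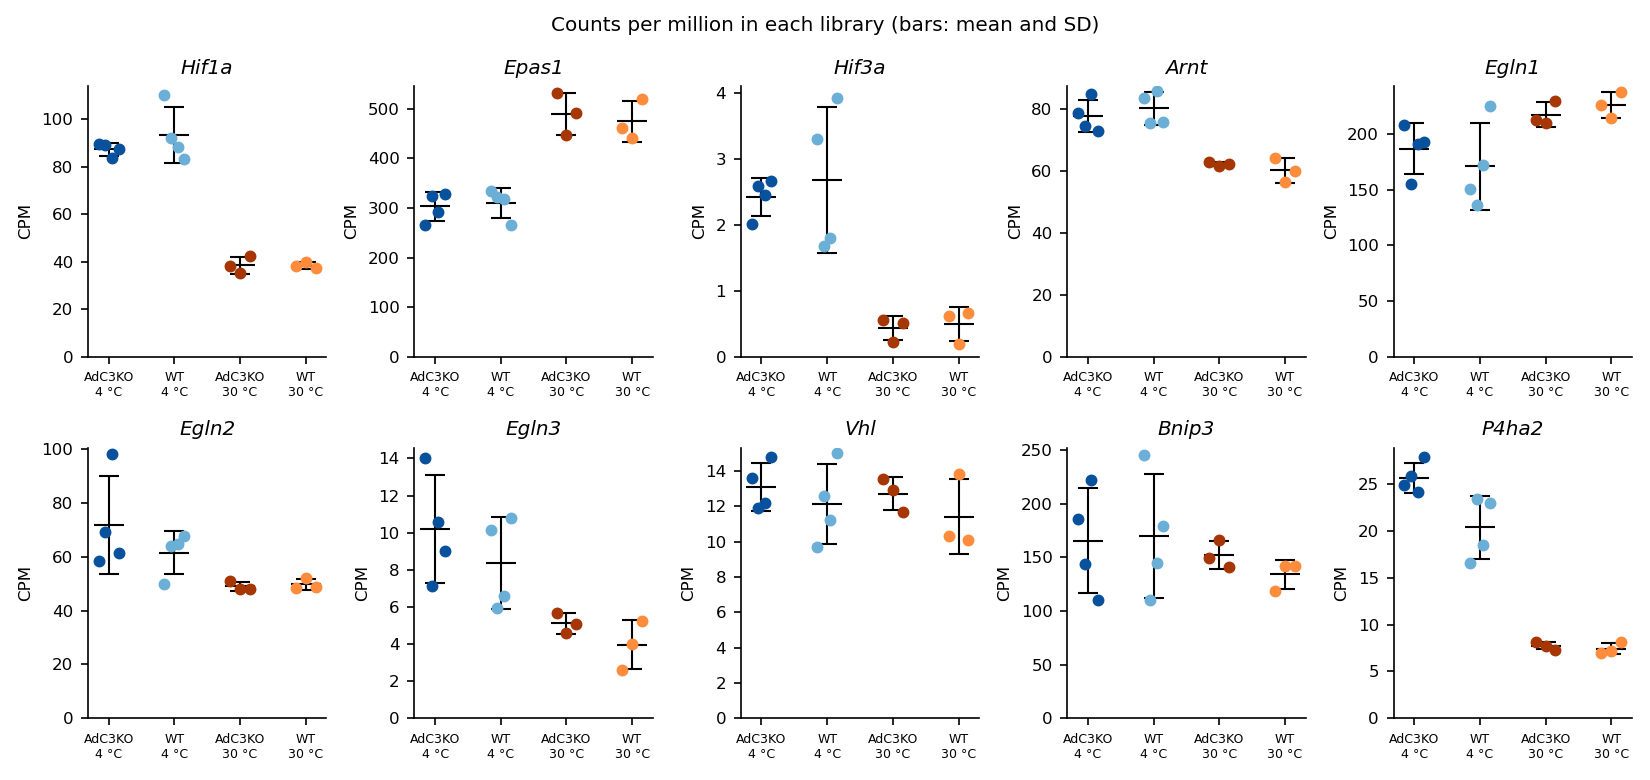
Level of each of the 10 members in CPM (linear axis) in every library. Groups from left to right are AdC3KO 4 °C, WT 4 °C, AdC3KO 30 °C and WT 30 °C. Points are libraries, and bars give the group mean and SD. Hif1a, Hif3a and P4ha2 sit higher and Epas1 lower in all 4 °C libraries than in any 30 °C library.

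Hif1a, on chromosome 12 (73901375 to 73947530, plus strand, GRCm38), encodes the alpha subunit best known for switching on glycolysis. It measured 89.4, 89.2, 83.6 and 87.3 CPM in the AdC3KO libraries at 4 °C, and 38.1, 35.3 and 42.5 CPM in those at 30 °C. WT libraries held 110.2, 91.9, 88.3 and 83.3 CPM at 4 °C, and 38.1, 39.9 and 37.2 CPM at 30 °C. Every library at 4 °C stood far above every library at 30 °C, with no overlap in either genotype. The log2 fold change at 4 °C against 30 °C was 1.18 (SE 0.10, adjusted p = 3.28e-08) in AdC3KO, a 2.26-fold rise, and 1.28 (SE 0.10, adjusted p = 1.50e-08) in WT, a 2.43-fold rise. Of its annotated exon bases, 5.60% overlap the antisense gene Gm15283, which held 4 to 19 counts in a library, against at least 921 for Hif1a. A further 2.51% figure applies to Gm49321, a protein-coding gene on the same strand as Hif1a, which held 0 counts in every library. These counts do not show how reads in the shared stretches were assigned. The strand setting is not given, and it bears on the antisense stretch only.

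Epas1, on chromosome 17 (86753700 to 86833410, plus strand), moved the other way. In AdC3KO it measured 267, 325, 292 and 329 CPM at 4 °C, and 532, 447 and 492 CPM at 30 °C. In WT it measured 334, 322, 319 and 266 CPM at 4 °C, and 462, 441 and 520 CPM at 30 °C. All 4 °C libraries were below all 30 °C libraries. Epas1 fell at 4 °C by 0.69 on the log2 scale in AdC3KO (SE 0.11, adjusted p = 2.90e-05) and fell by 0.61 in WT (SE 0.11, adjusted p = 0.000102), which is 1.62-fold lower in AdC3KO and 1.53-fold lower in WT. In bulk tissue, fewer cells of a type and less RNA per cell cannot be told apart. Summed endothelial markers ran the other way from Epas1, at 1696 to 1992 CPM in AdC3KO at 4 °C, 1591 to 1786 CPM in WT at 4 °C, 909.7 to 1039 CPM in AdC3KO at 30 °C and 883 to 1193 CPM in WT at 30 °C. Of these 12 markers, 6 rose and 4 fell at 4 °C in AdC3KO, 6 rose and 5 fell in WT, and none was at 0. Of all genes, 63% were called in AdC3KO and 61.4% in WT. The markers thus moved both ways, unlike their sum, with a median log2 fold change of 0.64 in AdC3KO and 0.19 in WT. The part of endothelial cells in the level of Epas1 was not tested.

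Hif3a, on chromosome 7 (17031507 to 17062427, minus strand), encodes the third alpha subunit, some of whose splice forms restrain the other alpha subunits. It was the scarcest member, at 2.01, 2.58, 2.44 and 2.66 CPM in AdC3KO at 4 °C and 0.556, 0.223 and 0.517 CPM in AdC3KO at 30 °C. WT libraries held 3.30, 1.68, 1.80 and 3.91 CPM at 4 °C and 0.621, 0.200 and 0.669 CPM at 30 °C. The groups did not overlap, and the spread was wide: counts ran from 32 to 96 in WT at 4 °C and from 5 to 19 in WT at 30 °C. Its log2 fold change was 2.47 in AdC3KO (SE 0.43, adjusted p = 0.000117) and 2.41 in WT (SE 0.43, adjusted p = 0.000145), the largest among the members, at 5.52-fold in AdC3KO and 5.33-fold in WT. Counts per gene do not separate its splice forms.

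Arnt, the shared partner of the alpha subunits, is also called HIF-1β and lies on chromosome 3 (95434388 to 95497240, plus strand). It averaged 77.8 ± 5.26 CPM (AdC3KO) and 80.2 ± 5.39 CPM (WT) at 4 °C (SD, n = 4 each), and 62.2 ± 0.695 CPM (AdC3KO) and 60.2 ± 3.98 CPM (WT) at 30 °C (SD, n = 3 each). No 4 °C library, at 73.0 to 85.9 CPM, reached down to the 30 °C libraries, at 56.3 to 64.3 CPM. Its rise was small, with a log2 fold change of 0.32 (SE 0.08, adjusted p = 0.00241) in AdC3KO and 0.41 (SE 0.08, adjusted p = 0.00034) in WT. Under upper-quartile scaling neither rise was called, at 0.09 (adjusted p = 0.344) in AdC3KO and 0.17 (adjusted p = 0.0766) in WT. The AdC3KO call was also lost with no filter on low counts (0.23, adjusted p = 0.0692). Without the libraries with muscle transcripts, which left library 3 alone for AdC3KO at 30 °C, the AdC3KO value was 0.28. Resting on that library at 30 °C, this fit does not decide whether the AdC3KO call holds.

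The 3 alpha subunits were next set side by side as shares of their summed level, in CPM per kilobase of exon. Hif1a made up 21.4 ± 1.78% of the sum in AdC3KO and 22.1 ± 1.35% in WT at 4 °C, against 6.96 ± 0.607% in AdC3KO and 7.16 ± 0.780% in WT at 30 °C. Epas1 made up 78.0 ± 1.75% in AdC3KO and 77.3 ± 1.56% in WT at 4 °C, against 93.0 ± 0.607% in AdC3KO and 92.8 ± 0.750% in WT at 30 °C. Hif3a stayed below 1% in every library. Epas1 therefore remained the most abundant alpha transcript in every library, while its ratio to Hif1a fell. That ratio was 3.66 ± 0.364 in AdC3KO and 3.52 ± 0.284 in WT at 4 °C, against 13.4 ± 1.27 in AdC3KO and 13.1 ± 1.57 in WT at 30 °C.

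Within a genotype, each shift in the Hif1a and Epas1 shares had p = 0.0286 in a two-sided exact permutation test, the smallest that 4 libraries against 3 allow. Adjusted over 12 tests this was 0.0686, so neither genotype alone passed. A test chosen after these values were seen permuted temperature within each genotype, over 1225 arrangements. In that exact permutation test the Hif1a share was 14.7 percentage points higher at 4 °C and the Epas1 share fell by 15.2 points, each with p = 0.000816, the smallest possible, and 0.000933 adjusted over 8 tests. The 4 °C and 30 °C libraries did not overlap for either share, which was known when the test was chosen, so its p adds no independent support.

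**Figure D2:**
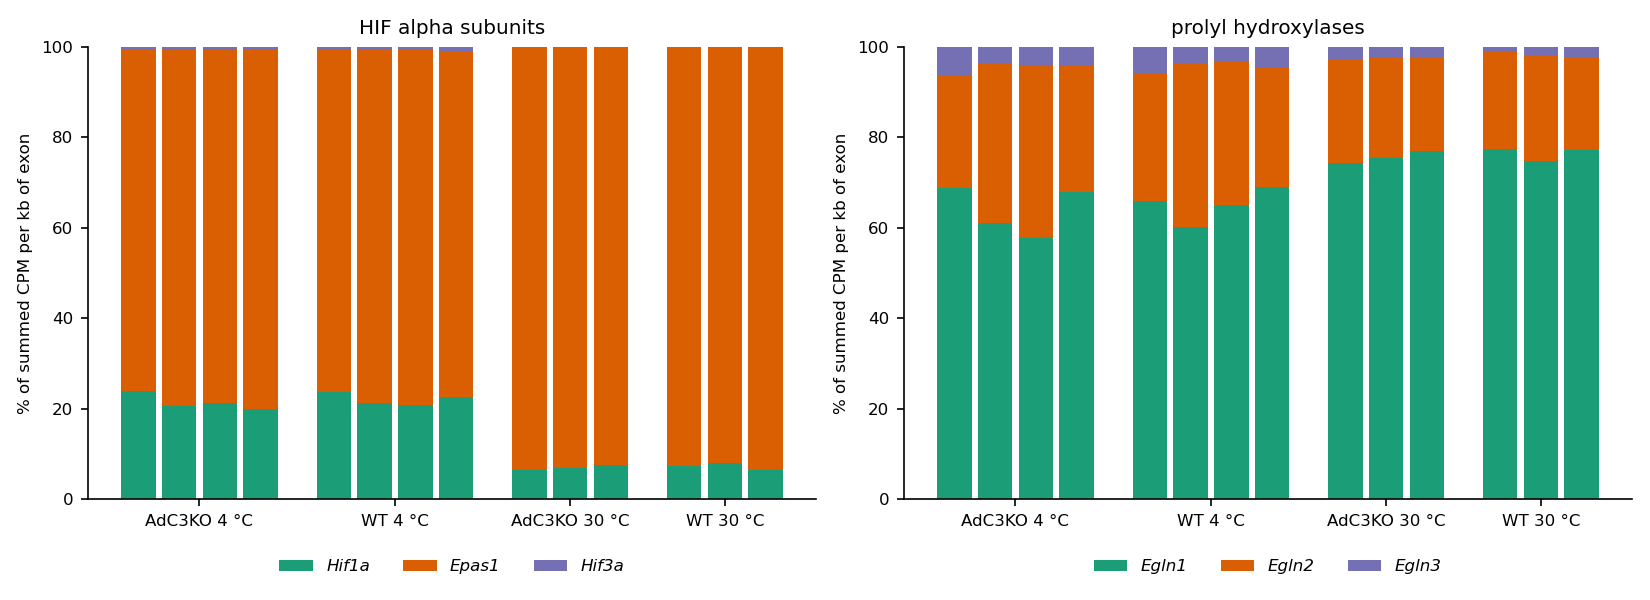
Shares of each alpha subunit and of each prolyl hydroxylase in the summed level of its family, in percent of CPM per kilobase of exon. Each stacked bar is a library, with groups in the order AdC3KO 4 °C, WT 4 °C, AdC3KO 30 °C and WT 30 °C. The lowest Hif1a share at 4 °C is 19.997%, in AdC3KO, and the highest at 30 °C is 7.89%, in WT.

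The prolyl hydroxylases did not move together. Egln1, on chromosome 8 (124908587 to 124949324, minus strand), encodes PHD2, the main HIF hydroxylase in most tissues. It measured 208, 155, 191 and 193 CPM in AdC3KO at 4 °C, and 212, 209.8 and 230.1 CPM in AdC3KO at 30 °C. In WT it measured 151, 137, 172 and 225 CPM at 4 °C, and 226, 214 and 238 CPM at 30 °C. The AdC3KO groups just failed to touch, while in WT library 4 at 4 °C lay within the range at 30 °C. It fell by 0.40 on the log2 scale in WT (SE 0.14, adjusted p = 0.0199) and was not called in AdC3KO, where its log2 fold change was -0.22 (SE 0.14, adjusted p = 0.184). The difference between these responses was 0.18 (SE 0.20, adjusted p = 1). The WT call was lost without library 3 of WT at 30 °C (-0.36, adjusted p = 0.0699) and without the libraries with muscle transcripts (-0.27, adjusted p = 0.214). Egln1 was called lower in AdC3KO under upper-quartile scaling (-0.45, adjusted p = 0.0081).

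Egln2, on chromosome 7 (27158658 to 27166802, minus strand), encodes PHD1. AdC3KO libraries held 58.4, 69.3, 98.0 and 61.5 CPM at 4 °C and 50.9, 48.2 and 48.0 CPM at 30 °C. WT libraries held 49.8, 63.9, 64.8 and 67.6 CPM at 4 °C and 48.3, 52.2 and 48.9 CPM at 30 °C. The groups were apart in AdC3KO and overlapped in WT through library 1 at 4 °C. The log2 fold change was 0.55 in AdC3KO (SE 0.15, adjusted p = 0.00445), and in WT it was 0.31 (SE 0.15, adjusted p = 0.0869), which was not called. The highest value was that of library 3 of AdC3KO at 4 °C, which also had the most muscle transcripts. Without the 5 libraries with muscle transcripts, which left library 3 alone for AdC3KO at 30 °C, the AdC3KO value was 0.39. Resting on that library at 30 °C, this fit does not decide whether the AdC3KO call holds. Under upper-quartile scaling the AdC3KO value was 0.32 (adjusted p = 0.0693). The WT value was called without library 1 of WT at 4 °C (0.38, adjusted p = 0.0287), without library 3 of AdC3KO at 4 °C (0.29, adjusted p = 0.0194), when only its 2 groups were fitted (0.30, adjusted p = 0.0393) and with muscle markers as a covariate (0.36, adjusted p = 0.0256). It was called in only these 4 of 24 alternatives. The WT value was lowest under upper-quartile scaling (0.06, edgeR adjusted p = 0.727).

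Egln3, on chromosome 12 (54178981 to 54203860, minus strand), encodes PHD3, known as the family member most strongly induced by HIF. It measured 14.02, 7.15, 10.6 and 9.02 CPM in AdC3KO at 4 °C, and 5.69, 4.57 and 5.09 CPM in AdC3KO at 30 °C. In WT it measured 10.1, 5.92, 6.60 and 10.8 CPM at 4 °C, and 2.61, 4.03 and 5.24 CPM at 30 °C. All 4 °C libraries were above all 30 °C libraries, by a narrow margin in places. Its log2 fold change was 0.99 (SE 0.27, adjusted p = 0.00481) in AdC3KO, a 1.99-fold rise, and 1.07 (SE 0.28, adjusted p = 0.00328) in WT, a 2.11-fold rise. Without the libraries with muscle transcripts, which left library 3 alone for AdC3KO at 30 °C, the AdC3KO value was 0.98. Resting on that library at 30 °C, this fit does not decide whether the AdC3KO call holds.

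Per kilobase of exon, Egln1 was the most abundant of the 3 hydroxylases in every library. It made up 63.9 ± 5.40% of their sum in AdC3KO and 65.1 ± 3.61% in WT at 4 °C, against 75.7 ± 1.31% in AdC3KO and 76.5 ± 1.56% in WT at 30 °C. Egln2 made up 31.4 ± 6.15% in AdC3KO and 30.6 ± 4.29% in WT at 4 °C, against 21.9 ± 1.15% in AdC3KO and 21.7 ± 1.53% in WT at 30 °C. Egln3 made up 4.66 ± 1.09% in AdC3KO and 4.34 ± 1.20% in WT at 4 °C, against 2.41 ± 0.251% in AdC3KO and 1.80 ± 0.552% in WT at 30 °C. For each of these shares the 4 °C libraries and the 30 °C libraries did not overlap in either genotype. In the permutation within genotypes, which was chosen after these values were seen, the Egln1 share fell by 11.6 percentage points at 4 °C (p = 0.000816, adjusted p = 0.000933). The Egln3 share was 2.40 points higher with the same p. The Egln2 share was 9.19 points higher (permutation p = 0.00245, adjusted p = 0.00245). That these libraries did not overlap was known when this permutation was chosen, so its p-values add no independent support. Within a single genotype the adjusted exact permutation p was 0.0857 for Egln1 and Egln3 and 0.114 for Egln2.

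Vhl, on chromosome 6 (113623959 to 113631633, plus strand), did not pass the test in either genotype. It averaged 13.1 ± 1.35 CPM (AdC3KO) and 12.1 ± 2.25 CPM (WT) at 4 °C, against 12.7 ± 0.949 CPM (AdC3KO) and 11.4 ± 2.11 CPM (WT) at 30 °C. The libraries of all groups overlapped. The log2 fold change was 0.04 in AdC3KO (95% interval -0.28 to 0.37, adjusted p = 0.819) and 0.09 in WT (95% interval -0.24 to 0.42, adjusted p = 0.627).

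The HIF targets in the set differed from each other. P4ha2, on chromosome 11 (54100095 to 54131665, plus strand), encodes a catalytic subunit of the collagen prolyl hydroxylase. It measured 24.9, 25.8, 24.1 and 27.9 CPM in AdC3KO at 4 °C, and 8.11, 7.77 and 7.35 CPM in AdC3KO at 30 °C. WT libraries held 16.6, 23.4, 18.5 and 23.0 CPM at 4 °C, and 6.999, 7.18 and 8.13 CPM at 30 °C. The 4 °C libraries were clear of the 30 °C libraries in both genotypes. Its log2 fold change was 1.73 (SE 0.13, adjusted p = 1.31e-08) in AdC3KO, a 3.31-fold rise, and 1.45 (SE 0.13, adjusted p = 9.07e-08) in WT, a 2.74-fold rise.

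Bnip3, on chromosome 7 (138890836 to 138909519, minus strand), encodes a mitochondrial outer membrane protein that recruits autophagosomes. It measured 186, 143, 222 and 111 CPM in AdC3KO at 4 °C, and 149.6, 166 and 140.5 CPM in AdC3KO at 30 °C. In WT it measured 245, 110.1, 144 and 179 CPM at 4 °C, and 118, 142 and 142 CPM at 30 °C. Cold libraries scattered on both sides of the 30 °C libraries. The log2 fold change was 0.12 in AdC3KO (95% interval -0.43 to 0.68, adjusted p = 0.696) and 0.34 in WT (95% interval -0.22 to 0.90, adjusted p = 0.275). Of its exon bases, 22.2% overlap the antisense gene Gm45507, which held 0 counts in every library. The strand setting is not given, so these counts do not show how reads in the shared stretch were assigned.

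**Figure D3:**
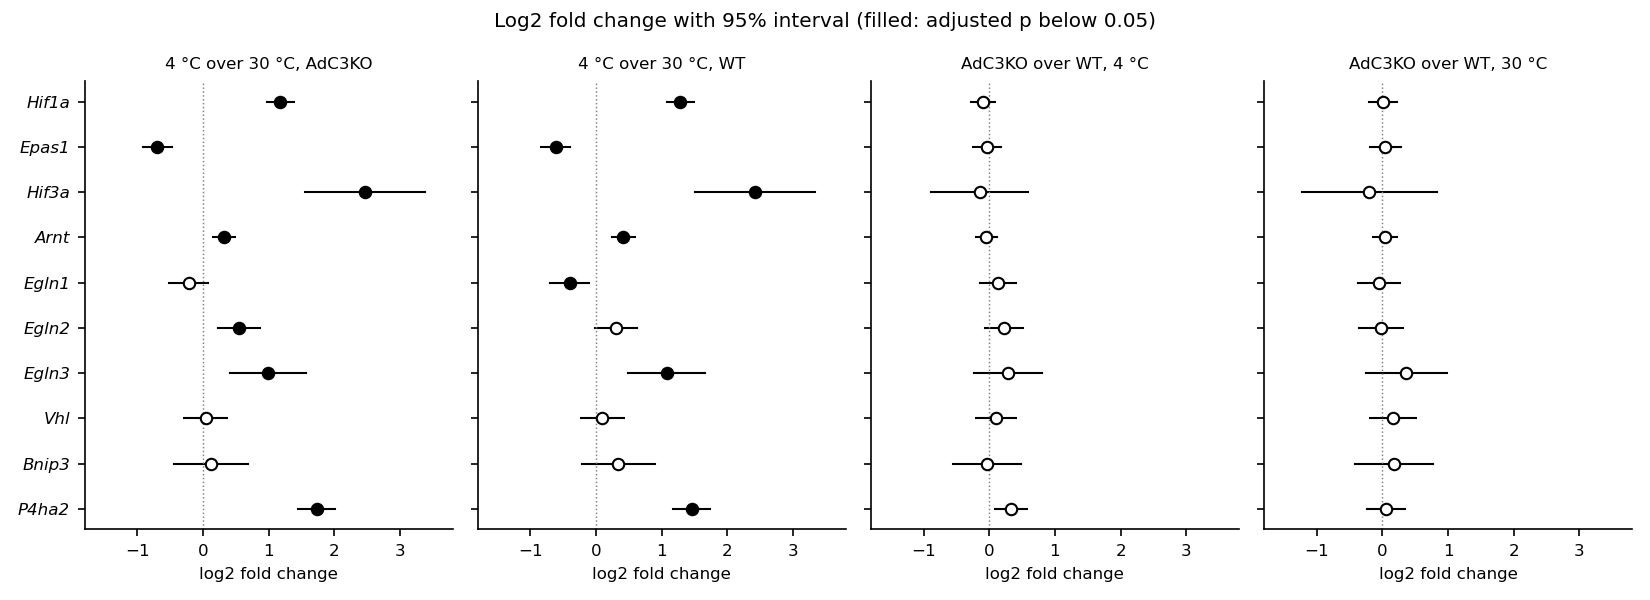
Log2 fold change of each member with its 95% interval for 4 °C against 30 °C in AdC3KO and in WT, and for AdC3KO against WT at 4 °C and at 30 °C. Hif3a, P4ha2, Hif1a and Egln3 lie right of 0 and Epas1 left of 0 in both cold comparisons, while 9 of 10 genotype intervals at 4 °C and all 10 at 30 °C include 0.

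None of the 10 members passed the test between genotypes. At 4 °C, 0 members were called in AdC3KO against WT, beside 0.0502% of all genes. At 30 °C, 0 were called, beside 0.0439% of all genes, and 0 had libraries that did not overlap, beside 7.29%. With no adjustment, 1 member had p below 0.05 at 4 °C, beside 4.8% of all genes, and 0 at 30 °C, beside 1.33%. DESeq2 also called 0 members in both comparisons. Log2 fold changes ran from -0.14 to 0.33 at 4 °C and from -0.20 to 0.37 at 30 °C.

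The member with the unadjusted p below 0.05 was P4ha2. It averaged 25.7 ± 1.61 CPM (AdC3KO) and 20.4 ± 3.37 CPM (WT) at 4 °C (SD, n = 4 each). These libraries did not overlap, which held for no other member and for 2.27% of all genes. Its log2 fold change was 0.33 (95% interval 0.09 to 0.58), with an edgeR adjusted p of 0.934 over all genes (0.0101 unadjusted). At 30 °C it averaged 7.74 ± 0.384 CPM (AdC3KO) and 7.44 ± 0.606 CPM (WT), with overlapping libraries and a log2 fold change of 0.06 (95% interval -0.23 to 0.35).

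The genotype intervals show what these libraries could resolve. For Hif1a they ran from -0.28 to 0.09 at 4 °C and from -0.21 to 0.22 at 30 °C on the log2 scale. For Epas1 they ran from -0.24 to 0.18 at 4 °C and from -0.19 to 0.29 at 30 °C. Arnt was measured as closely, with -0.20 to 0.11 at 4 °C and -0.14 to 0.23 at 30 °C. Scarce or scattered genes left wider ranges: Egln3 had -0.24 to 0.81 at 4 °C and -0.25 to 0.99 at 30 °C, and Hif3a had -0.88 to 0.59 at 4 °C and -1.22 to 0.82 at 30 °C. Shares of the alpha subunits and hydroxylases differed between AdC3KO and WT with adjusted exact permutation p of at least 0.343, and 3 libraries against 3 at 30 °C cannot go below an unadjusted p of 0.1.

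Whether the cold response itself depended on genotype was tested as an interaction. It was called for 0 of 10 members and 0% of all genes in edgeR, and DESeq2 called 0 members. Unadjusted p was below 0.05 for 0 members and for 2.19% of all genes. The difference in response, AdC3KO minus WT, ranged from -0.22 for Bnip3 to 0.28 for P4ha2. For P4ha2 the 95% interval of that difference was -0.10 to 0.65.

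Per kilobase of exon, the order of the members differed with temperature. At 4 °C Bnip3 came first, at 73.0 CPM per kilobase in AdC3KO and 74.9 in WT. Epas1 followed at 54.2 in AdC3KO and 55.5 in WT, and Egln1 at 52.0 in AdC3KO and 47.6 in WT. These neighbours overlapped in their libraries. Egln2, Hif1a and Arnt came next, and only Egln2 and Hif1a in WT overlapped. Vhl, P4ha2 and Egln3 overlapped as neighbours in both genotypes, and Hif3a was last, at 0.361 in AdC3KO and 0.399 in WT.

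At 30 °C Epas1 stood alone at the top, at 87.7 CPM per kilobase in AdC3KO and 84.9 in WT. Bnip3 and Egln1 followed and overlapped each other. Egln2 came next, then Arnt above Hif1a, the reverse of their order at 4 °C, with no overlap between Arnt and Hif1a. Vhl, Egln3 and P4ha2 came after these, with Egln3 and P4ha2 overlapping in WT alone, and Hif3a was again last.

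The genes most like the alpha subunits in pattern were sought among 9358 genes averaging at least 5 CPM, by Pearson correlation of log2 CPM over the 14 libraries. For Hif1a they were Rab9, Eif4a1 and Cd36, each with r = 0.994. For Epas1 they were Atp2b4 (r = 0.981), C8g (r = 0.980) and Myo10 (r = 0.973). For Hif3a they were Fmo2 (r = 0.973), Sema3g (r = 0.971) and Igfbp3 (r = 0.964). The libraries fall into 2 temperature groups, so these values mostly describe a shared cold difference.

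The wider pathway was described with 6 lists, from each of which up to 4 called genes with the largest change in WT are named. Standard errors of their log2 fold changes at 4 °C against 30 °C ran from 0.11 for Crebbp to 0.67 for Slc16a3, both in WT, and the highest edgeR adjusted p was 0.00408, for Cited2 in WT. The counts below stand beside 31% of all genes higher and 32.1% lower at 4 °C in AdC3KO, and 30.6% higher and 30.8% lower in WT, and no list was tested against other genes. The lists were chosen with earlier results of these data known. Their counts and medians therefore cannot show that a list responded more than other genes. Among 11 tested HIF partners and coregulators, 7 rose and 3 fell at 4 °C in AdC3KO, with a median log2 fold change of 0.62, and 6 rose and 2 fell in WT, with a median of 0.49. Ncoa1, a histone acetyltransferase coactivator, averaged 227 CPM (AdC3KO) and 219 CPM (WT) at 4 °C, against 49.1 CPM (AdC3KO) and 45.9 CPM (WT) at 30 °C. Its log2 fold change was 2.21 in AdC3KO and 2.25 in WT. Crebbp, the CBP acetyltransferase, rose by 1.05 in AdC3KO and 0.94 in WT on the log2 scale, and Prkaa2, a catalytic subunit of AMP-activated kinase, by 0.93 in AdC3KO and 0.91 in WT. Cited2, which competes with HIF for binding to CREBBP and EP300, fell by 1.78 in AdC3KO and fell by 1.13 in WT. Without the libraries with muscle transcripts the Cited2 value in WT was -0.79 and was not called (adjusted p = 0.0733).

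Of 17 genes of the VHL ligase and HIF turnover, 10 rose and 2 fell in AdC3KO, with a median of 0.49, and 10 rose and 1 fell in WT, with a median of 0.34. Hsp90aa1, the inducible HSP90 chaperone that steadies HIF-1α, averaged 1741 CPM (AdC3KO) and 1602 CPM (WT) at 4 °C, against 144 CPM (AdC3KO) and 147 CPM (WT) at 30 °C. Its log2 fold change was 3.60 in AdC3KO and 3.45 in WT. Siah2, a ubiquitin ligase for prolyl hydroxylases, rose by 1.76 in AdC3KO and 1.81 in WT, and Usp33, a deubiquitinase, by 1.63 in AdC3KO and 1.74 in WT. Hsp90ab1 rose by 1.52 in AdC3KO and 1.49 in WT. Without the libraries with muscle transcripts, 7 genes of this list were called in AdC3KO in place of 12. Over all genes that fit called 6589 in place of 10050, with 1 AdC3KO library left at 30 °C.

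Of 20 HIF targets in glucose metabolism, 14 rose and 1 fell in AdC3KO, with a median of 0.65, beside 31% of all genes higher and 32.1% lower. In WT 12 rose and 1 fell, with a median of 0.43, beside 30.6% higher and 30.8% lower. Slc2a1, the glucose transporter GLUT1, averaged 35.4 CPM (AdC3KO) and 29.9 CPM (WT) at 4 °C, against 5.69 CPM (AdC3KO) and 5.29 CPM (WT) at 30 °C (log2 fold change 2.64 in AdC3KO and 2.50 in WT). Pfkp, a phosphofructokinase, rose by 2.30 in AdC3KO and 1.91 in WT, and Hk2, a hexokinase, by 1.59 in AdC3KO and 1.34 in WT. Slc16a3, the lactate exporter MCT4, rose by 3.66 in AdC3KO and 3.84 in WT, where it was 3.20 without library 4 of WT at 4 °C.

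Of 32 other HIF targets tested, 18 rose and 6 fell in AdC3KO, with a median of 0.79, and 18 rose and 5 fell in WT, with a median of 0.71. Hmox1, heme oxygenase, averaged 524 CPM (AdC3KO) and 492 CPM (WT) at 4 °C, against 7.23 CPM (AdC3KO) and 8.51 CPM (WT) at 30 °C. Its log2 fold change was 6.18 in AdC3KO and 5.86 in WT. Plod2, a lysyl hydroxylase, rose by 2.51 in AdC3KO and 2.30 in WT. Bhlhe40, a circadian repressor, fell by 2.57 in AdC3KO and fell by 2.98 in WT. Ddit4, an inhibitor of mTORC1, rose by 2.20 in AdC3KO and 2.41 in WT. Its AdC3KO value was 1.02 without the libraries with muscle transcripts, a fit that kept library 3 alone for AdC3KO at 30 °C. With that same library 3 left out instead, the AdC3KO value was 2.92, so both values turn on this library. The angiogenic factor Vegfa, named here after its values were seen, had a log2 fold change of -0.07 in AdC3KO (adjusted p = 0.527) and -0.06 in WT (adjusted p = 0.612).

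The families of P4ha2 and Bnip3 were also counted. Of 13 tested collagen hydroxylases and modifiers, 5 rose and 6 fell in AdC3KO, with a median of -0.19, and 4 rose and 4 fell in WT, with a median of -0.16. The WT count is close to the 61.4% of all genes called there, and 63% were called in AdC3KO. P4ha1, the sister subunit of P4ha2, averaged 116 CPM (AdC3KO) and 93.4 CPM (WT) at 4 °C, against 21.5 CPM (AdC3KO) and 20.6 CPM (WT) at 30 °C (log2 fold change 2.43 in AdC3KO and 2.18 in WT). Lox, a collagen cross-linking oxidase, rose by 1.76 in AdC3KO and 1.42 in WT. Crtap, a partner of prolyl 3-hydroxylase, fell by 1.76 in AdC3KO and fell by 1.66 in WT. Without the libraries with muscle transcripts, 6 genes of this list were called in AdC3KO in place of 11, in the same fit that called 6589 genes in all in place of 10050.

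Of 16 mitophagy receptors and autophagosome genes, 8 rose and 1 fell in AdC3KO, with a median of 0.36, and 9 rose and 1 fell in WT, with a median of 0.41. In both genotypes the share of the list called is near that of all genes, 63% in AdC3KO and 61.4% in WT. Sqstm1, the autophagy receptor p62, averaged 765 CPM (AdC3KO) and 894 CPM (WT) at 4 °C, against 174 CPM (AdC3KO) and 183 CPM (WT) at 30 °C (log2 fold change 2.14 in AdC3KO and 2.29 in WT). Gabarapl1, of the LC3 family, rose by 2.11 in AdC3KO and 2.22 in WT, and the receptor Bcl2l13 by 1.09 in AdC3KO and 1.24 in WT. Optn rose by 0.63 in AdC3KO and 0.85 in WT. Its AdC3KO value was 0.38 without the libraries with muscle transcripts, a fit that kept library 3 alone for AdC3KO at 30 °C. Such a fit does not decide whether the AdC3KO call holds. Bnip3l, the closest relative of Bnip3, is named outside the rule of largest change. Its log2 fold change was 0.22 in AdC3KO (adjusted p = 0.0917) and 0.33 in WT (adjusted p = 0.0173). Some genes stand in more than 1 list, among them Bnip3l, P4ha1, Plod2 and Lox. In AdC3KO against WT at 4 °C, in the same comparison at 30 °C, and in the interaction, 0 genes of any of the 6 lists were called.

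**Figure D4:**
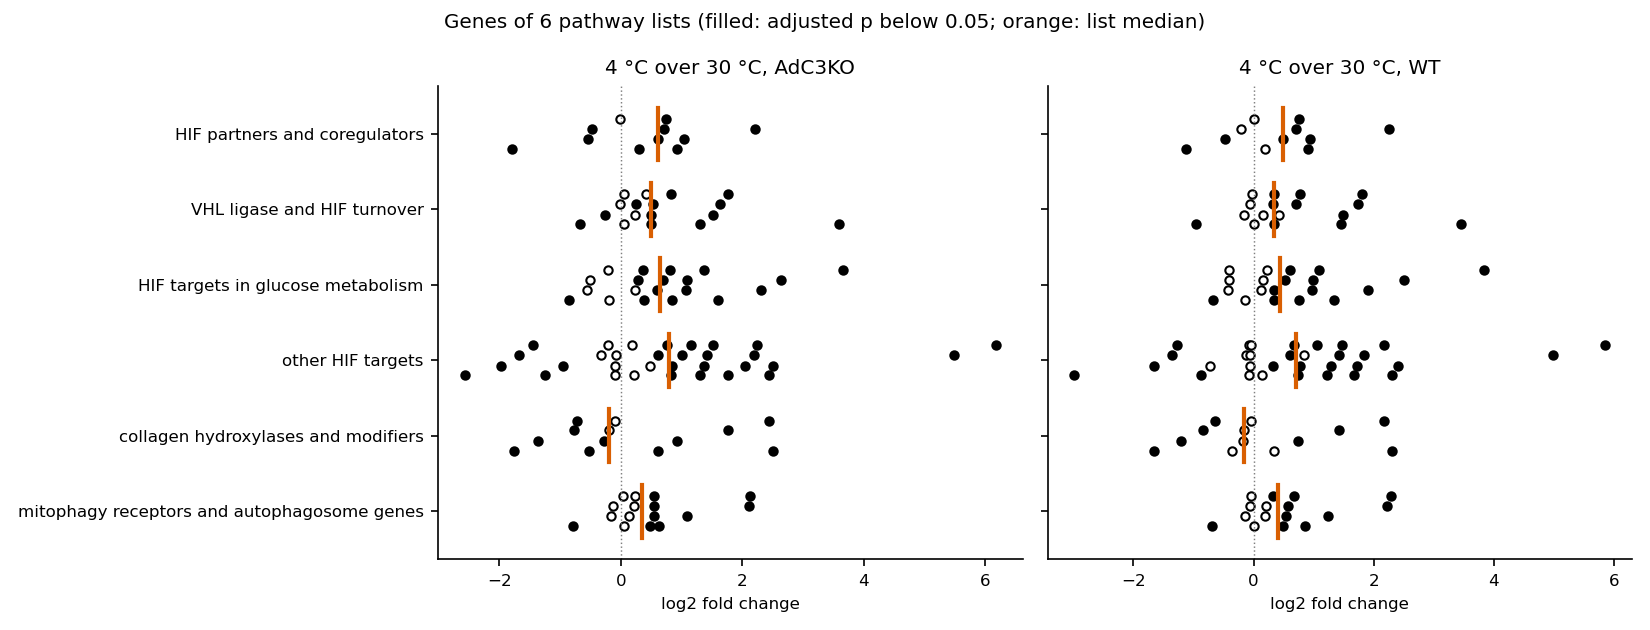
Log2 fold change at 4 °C against 30 °C of each tested gene in the 6 pathway lists, in AdC3KO and in WT. Filled points have an adjusted p below 0.05, and orange lines mark the list medians. Genes that rose outnumber those that fell in every list but the collagen hydroxylases and modifiers, where 5 rose and 6 fell in AdC3KO and 4 rose and 4 fell in WT.

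Sums of some other cell markers ran higher at 4 °C. Those of macrophages in AdC3KO and of red blood cells in WT overlapped between temperatures. Fibroblast marker sums overlapped in both genotypes. In AdC3KO they ran from 890 to 1260 CPM at 4 °C and from 810 to 1347 CPM at 30 °C. In WT they ran from 1058 to 1358 CPM at 4 °C and from 989 to 1311 CPM at 30 °C. Macrophage markers summed to 226 to 398 CPM in AdC3KO and 287 to 598 CPM in WT at 4 °C, against 167 to 252 CPM in AdC3KO and 173 to 204 CPM in WT at 30 °C. Of 10 such markers, 4 rose in AdC3KO and 7 rose in WT, with 0 lower in either. Of all genes, 31% were called higher in AdC3KO and 30.6% in WT. The shares called lower were 32.1% in AdC3KO and 30.8% in WT. Red blood cell markers summed to 497 to 623 CPM in AdC3KO and 327 to 599 CPM in WT at 4 °C, against 245 to 385 CPM in AdC3KO and 276 to 358 CPM in WT at 30 °C. The part of these cells in the values of Hif1a, Hmox1 and Sqstm1 was not tested.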

How the data were processed

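The authors deposited raw gene counts per library, whole numbers with no normalization. Per the labels, BAT RNA was extracted with TRIzol and a column, and libraries were made with a NEBNext Ultra II kit. Per the submitters' processing notes, reads passed through Trimmomatic, FastQC, STAR (GRCm38/mm10) and HTSeq. Versions, annotation and strand setting: not given in the sources used here. Without a known strand setting, reads of a gene and its antisense partner cannot be told apart.

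Counts of 55471 genes in 14 libraries were used. The 5 HTSeq summary lines were left out; reads without a feature were 5.95 to 8.19% and ambiguous reads 5.53 to 6.03% of each library's total. Symbols, exon lengths and member coordinates came from GENCODE M21, which matched 99.57% of gene IDs. edgeR 4.0.16 in R 4.3.3 was fitted to all 14 libraries as 4 group means, with filterByExpr at a minimum count of 10, TMM scaling (factors 0.822 to 1.21) and the robust quasi-likelihood F-test. Adjustment was Benjamini-Hochberg over 15949 genes, with calls at 0.05. The SE is the fold change over the square root of F. CPM values are TMM-scaled. Shares were compared with exact permutation tests, two-sided. Promoters came from RefSeq, which matched 9 of 10 members.

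The named pathway genes are those called with the largest change in WT at 4 °C, up to 4 a list, averaging at least 5 CPM in the higher group. Vegfa and Bnip3l are named outside this rule. A gene that this rule also picks is not reported here. The 10 members and all lists were chosen with earlier results of these data known. DESeq2 1.42.0, other scalings, filters, left-out libraries and a replicate block were alternatives. Same-numbered libraries did not deviate together: correlations over 19 pairs ran from -0.34 to 0.30, so the numbers were not taken as pairs.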

Additional observations from a re-analysis of the deposited data

How the results depend on the processing

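Members called at 4 °C against 30 °C numbered 7 in AdC3KO whichever single library was left out, and 6 to 8 in WT; in AdC3KO against WT at either temperature and in the interaction they numbered 0 throughout. Without the 5 libraries with muscle transcripts, 4 members and 6589 of all genes were called in AdC3KO, in place of 7 members and 10050 genes; there 1 library at 30 °C remained and was assumed to vary like the other groups. With the replicate number as a block, 8 members were called in AdC3KO and 7 in WT at 4 °C against 30 °C, and 0 in AdC3KO against WT; the added call was Egln1 in AdC3KO (-0.30, adjusted p = 0.0334). DESeq2 called 7 members in each cold comparison and 0 in the others. Of all genes, DESeq2 called 10181 in AdC3KO and 9921 in WT at 4 °C against 30 °C. The replicate block called 9789 in AdC3KO and 9437 in WT, and upper-quartile scaling 10279 in AdC3KO and 10055 in WT. Upper-quartile scaling moved the all-gene median of log2 fold changes to -0.29 in AdC3KO and -0.27 in WT, against -0.06 in AdC3KO and -0.03 in WT with TMM, and called 6 members in each. With a filter at 5 CPM, Hif3a was not tested and 6 members were called in each, beside 7580 genes in AdC3KO and 7497 in WT. Hif1a, Epas1 and P4ha2 kept their direction and their call in both cold comparisons under all alternatives run, as did Hif3a wherever it was tested. No direction reversed in a called value. Hif3a, with 5 to 19 counts in WT at 30 °C, is limited most by depth.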
